A study of Mus musculus with 30 samples.

Results

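The NRF2 antioxidant response was followed through 10 genes in mouse macrophages: the transcription factor gene Nfe2l2, its repressor Keap1, and the antioxidant and detoxification genes Hmox1, Nqo1, Gclc, Gclm, Gsr, Txnrd1, Srxn1 and Prdx1. The genes were chosen by symbol, as the rows of 43629 Ensembl gene IDs that map to these names. All 10 were found, and all 10 passed the filter on low counts in both experiments, among 12824 genes tested in wild type and 12382 in shRNA libraries. The series sequenced messenger RNA from macrophages of C57BL/6 mice that had been grown from bone marrow cells for 7 days with 20 ng/mL of the growth factor CSF-1. In a first experiment, wild type cells received no stimulus, 20 ng/mL IL-4 (the cytokine of alternative activation), IL-4 with 10 µM PGE2 (the lipid mediator prostaglandin E2), or IL-4 with 10 nM valinomycin (a potassium ionophore). In a second experiment, cells carried a control or an Etv1 shRNA, a hairpin RNA that lowers the messenger of the transcription factor ETV1, and received no stimulus, IL-4, or IL-4 with PGE2 at the same doses. Each of the 10 groups held 3 libraries, CSF-1 was present in all of them, and the labels give no stimulation time. The labels name 1 control and 1 Etv1 hairpin genotype without hairpin sequences, and state lentiviral delivery only for hairpins against Etv1, so a difference between hairpins cannot be told apart from other effects of those hairpins or of transduction.

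NRF2, the protein of Nfe2l2, is a stress-activated transcription factor that the KEAP1 protein binds and marks for degradation until oxidants or electrophiles modify KEAP1. Freed NRF2 pairs with small MAF proteins on antioxidant response elements and raises genes that make and recycle glutathione and thioredoxin, supply NADPH and break down heme. In macrophages this programme is known for limiting oxidative damage and inflammatory output. NRF2 is regulated largely at the level of the protein, which was not measured here.

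The antioxidant response element was searched in the promoters because the members share this factor. The letters TGACNNNGC were sought on both strands in windows from 250 bases before to 50 bases after the start, taken from RefSeq on GRCm38.p6. Windows were found for 7 of the 10 members, 9 windows in all because Txnrd1 has 3 starts, and 5 of the 9 held a match, against 12.4% of 32851 windows of all genes. Each match is given with its surroundings, 30 bases read along the gene's strand, with the matched letters in capitals. A match on the opposite strand appears as its reverse complement.
Nfe2l2, chr2:75704884-75704913: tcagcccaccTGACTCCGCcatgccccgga
Gclm, chr3:122245413-122245442: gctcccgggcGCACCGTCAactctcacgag
Txnrd1, chr10:82859104-82859133: ctggatttttGCTTTGTCAttctgacacgg
Srxn1, chr2:152105542-152105571: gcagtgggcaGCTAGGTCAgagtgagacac
Prdx1, chr4:116685456-116685485: cagggaaagcGCTGAGTCAtcccccgtagg

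The match began at base -240 from the start in Nfe2l2 on the gene's own strand, and on the opposite strand at -134 in Gclm, -92 in Txnrd1 (at 1 of its 3 starts), 28 in Srxn1 and -133 in Prdx1. Only the match of Prdx1, among these 9 windows, also read TGACTCAGC, which 0.454% of all windows held. That form is a special case of the first motif and contains TGACTCA, the letters bound by AP-1. The windows of Keap1 and Nqo1 and the other starts of Txnrd1 did not contain these letters. A match is a description of the sequence and not a measured binding site. Gclm, the modifier subunit of the glutathione-synthesising enzyme, is shown with the whole 250 bases before its start, with the same site in capitals.
Gclm, chr3:122245307-122245556: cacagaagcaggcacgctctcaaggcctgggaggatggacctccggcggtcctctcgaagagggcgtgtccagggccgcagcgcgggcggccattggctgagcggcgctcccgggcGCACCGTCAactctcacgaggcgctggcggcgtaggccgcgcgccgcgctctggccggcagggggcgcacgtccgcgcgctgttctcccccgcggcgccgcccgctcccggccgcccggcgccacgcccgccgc

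By GENCODE M21 on GRCm38, all 10 members are protein-coding genes, and Nfe2l2 (ENSMUSG00000015839) lies at chr2:75675513-75704641 on the minus strand. Keap1 (ENSMUSG00000003308) lies at chr9:21229730-21239361 and Gclc (ENSMUSG00000032350) at chr9:77754535-77794485. Chromosome 8 carries Gsr (ENSMUSG00000031584, chr8:33652523-33698163), Hmox1 (ENSMUSG00000005413, chr8:75093621-75100589) and Nqo1 (ENSMUSG00000003849, chr8:107388225-107403206). The others are Gclm (ENSMUSG00000028124, chr3:122245557-122270732), Txnrd1 (ENSMUSG00000020250, chr10:82833951-82897712), Srxn1 (ENSMUSG00000032802, chr2:152105516-152111376) and Prdx1 (ENSMUSG00000028691, chr4:116685544-116700822). Exons of Keap1 overlap those of Gm16754 on the opposite strand, which held 576 counts over the 30 libraries against 27581 for Keap1. Exons of Gclm (109806 counts) overlap Gm6061 on the same strand (969 counts) and Gm17494 on the opposite strand (4 counts).

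Wild type libraries held 10514496 to 13414293 counts and shRNA libraries 6924973 to 30473040, with a median of 10303938. Etv1 itself was at 10.9, 10.4 and 10.5 CPM (a gene's counts scaled to the depth of its library) in unstimulated control shRNA libraries and at 4.84, 2.51 and 2.97 in Etv1 shRNA libraries, and it was lower under the Etv1 hairpin in all 3 conditions by log2 fold changes of -1.69, -1.39 and -1.67. The 8 macrophage markers (Adgre1, Csf1r, Cd68, Fcgr1, Mertk, Itgam, Lyz2 and Cd14) were all detected in every group. Their summed level was 14361 to 19083 CPM in wild type, 15895 to 21465 in control shRNA and 8902 to 10386 in Etv1 shRNA libraries. Lyz2 was the highest of them in every group. The 9 neutrophil markers summed to 166 to 283 CPM in wild type and to at most 7.04 in shRNA libraries, where Ly6g was at 0 in every group. In bulk libraries, fewer cells of a type and less RNA per cell cannot be told apart.

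Replicate number 2 stood apart in the shRNA experiment. It was the highest of the 3 libraries in 6 of 6 groups for Nqo1, Gclm, Gsr, Txnrd1 and Prdx1, and in 5 of 6 for Hmox1 and Srxn1. Over all genes tested, 2.86% had replicate 2 highest in every group. Gclc did the opposite, with replicate 1 highest in 5 of 6 groups. In unstimulated control shRNA cells, for example, Nqo1 stood at 12.8, 22.6 and 15.1 CPM. No member had the same replicate highest in all 4 wild type groups. The source of this pattern was not tested. For the members within the shRNA experiment, results are given with and without replicate 2 where the call depends on it. Values of other named genes and of gene lists are from the fit with all libraries only. The comparison of control shRNA with wild type cells was not refitted without replicate 2 of every group.

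**Figure D1:**
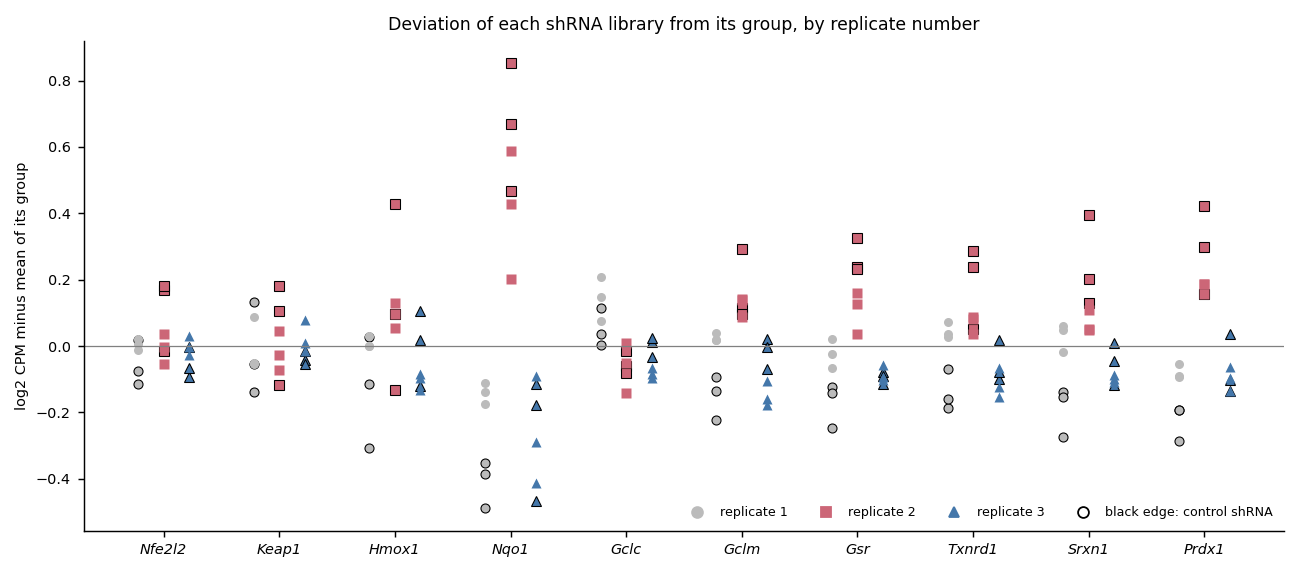
Deviation of each shRNA library from the mean of its group on the log2 CPM scale, for each member, with replicate numbers side by side and control shRNA libraries edged in black. Replicate 2 lies above the other libraries in 6 of 6 groups for Nqo1, Gclm, Gsr, Txnrd1 and Prdx1, and in none for Gclc.

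Per kilobase of exon, the scale on which different genes can be set side by side, 2 members stood far above the rest. In unstimulated wild type cells Prdx1, a peroxidase that removes hydrogen peroxide, stood at 638 ± 12.8 CPM per kilobase (SD, n = 3) and Hmox1, the inducible heme oxygenase, at 624 ± 20.2. These neighbours did not differ beyond their spread between libraries, which does not cover the choice of length. Srxn1, which repairs overoxidised peroxiredoxins, followed at 70.2 ± 0.156 and Nfe2l2 at 64.9 ± 0.973, and Txnrd1, the cytosolic thioredoxin reductase, at 37.9 ± 1.6. Gclc, Gclm and Gsr lay together at 19.1 ± 0.997, 18.6 ± 1.06 and 18.5 ± 0.895, with overlapping spreads. Gclc and Gclm are the catalytic and modifier subunits of the enzyme that limits glutathione synthesis, and Gsr is the reductase that recycles glutathione. Keap1 was at 12.6 ± 0.236, and Nqo1, a quinone reductase often used as an NRF2 readout, was lowest at 2.33 ± 0.101. In unstimulated control shRNA cells Hmox1 (1334 ± 98) and Prdx1 (1030 ± 124) again led, and Nqo1 was again lowest at 10.8 ± 3.3 CPM per kilobase. Gclm (85.8 ± 7.48) stood above Gclc (42.6 ± 0.358) there.

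IL-4 lowered most of the response in wild type macrophages. Against no stimulus, 9 of 10 members fell, none rose, and Keap1 did not pass. The background is high: 46.4% of all genes tested passed in either direction, 24.0% higher and 22.4% lower. The median log2 fold change of the members was -0.60, beside 0.01 for all genes. Calls are edgeR quasi-likelihood tests with Benjamini-Hochberg adjustment over all genes tested at 0.05, and values after ± are standard errors for log2 fold changes. Shares of all genes are from this fit unless stated, and the alternatives given beside it can call more or fewer genes. A count of members from an alternative fit is read against a background only where the count of all genes in that fit is given. Whether groups overlapped describes the libraries, and the share of all genes without overlap was not counted.

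Nfe2l2 was at 245, 244 and 251 CPM without stimulus and at 166, 169 and 164 CPM with IL-4. The groups did not overlap, and the log2 fold change was -0.57 ± 0.05 (edgeR adjusted p = 8.45e-10). Keap1 was at 58.7, 60.2 and 58.1 CPM and then at 63.5, 67.4 and 59.8 CPM, overlapping groups with a log2 fold change of 0.11 ± 0.06 (edgeR adjusted p = 0.125). The messenger of the factor fell while that of its repressor did not pass the test.

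The steepest falls were in Gsr and Hmox1. Gsr went from 48.2, 52.7 and 52.2 CPM to 23.6, 22.6 and 21.6 CPM, a fall of 2.26-fold (log2 fold change -1.18 ± 0.07, edgeR adjusted p = 2.67e-12). Hmox1 went from 1075, 1133 and 1069 CPM to 470, 522 and 481 CPM, a fall of 2.22-fold (log2 fold change -1.15 ± 0.13, edgeR adjusted p = 3.91e-05). In both genes every IL-4 library lay below every unstimulated one. The subunits of the glutathione-synthesising enzyme moved less: Gclc fell by 0.35 ± 0.06 and Gclm by 0.39 ± 0.06 on the log2 scale.

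In the thioredoxin branch, Txnrd1 stood at 258, 268 and 281 CPM without stimulus and at 157, 140 and 139 CPM with IL-4 (log2 fold change -0.89 ± 0.06, edgeR adjusted p = 2.67e-12). Srxn1 went from 198, 198 and 197 CPM to 116 CPM in each of the 3 IL-4 libraries (log2 fold change -0.77 ± 0.05, edgeR adjusted p = 9.5e-12). Prdx1 went from 1917, 1921 and 1987 CPM to 1230, 1348 and 1340 CPM (log2 fold change -0.57 ± 0.06). None of these groups overlapped, with no share counted for all genes. Nqo1 was low but detected, with 44, 37 and 50 counts without stimulus and 33, 24 and 29 with IL-4. These were 3.75, 3.44 and 3.67 CPM against 2.88, 1.91 and 2.27 CPM, a fall of 0.63 ± 0.21 on the log2 scale (edgeR adjusted p = 0.0159). That call did not hold with DESeq2 or without IL-4 replicate 2, and its adjusted p ranged from 0.00818 to 0.0854 over 11 alternatives.

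PGE2 added to IL-4 split the wild type response: Srxn1 rose while Nfe2l2, Txnrd1, Prdx1, Gclc and Gclm fell further. Of 10 members 1 rose and 5 fell, against a background of 59.4% of genes called in either direction, 29.9% higher and 29.5% lower. The members' median was -0.22, beside 0.01 for all genes. The share called was thus close to that of all genes, and the contrast lies in the direction of single members.

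Srxn1 rose from 116 CPM in each IL-4 library to 185, 177 and 203 CPM with PGE2, which brought it near its unstimulated level of 198 ± 0.44 CPM (SD, n = 3). Its log2 fold change was 0.70 ± 0.05 (edgeR adjusted p = 5.11e-11), with no overlap. Nfe2l2 fell to 119, 113 and 112 CPM (log2 fold change -0.54 ± 0.05, edgeR adjusted p = 2.73e-09). Its own messenger was therefore lowest in the group where Srxn1 was raised. Txnrd1 fell to 97.8, 85.5 and 85.2 CPM (log2 fold change -0.69 ± 0.06, edgeR adjusted p = 5.23e-10).

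Prdx1 fell to 902, 1040 and 1020 CPM (log2 fold change -0.40 ± 0.06) and Gclc to 45.9, 45.2 and 48.1 CPM (-0.28 ± 0.06), both without overlap with IL-4 alone. Gclm, at 85, 79.9 and 73.1 CPM with PGE2 and 90.9, 87.6 and 90.2 CPM with IL-4 alone, fell by 0.17 ± 0.06 on the log2 scale (edgeR adjusted p = 0.0115). This call was lost without PGE2 replicate 3, and the adjusted p ranged from 0.00258 to 0.09 over 11 alternatives. Keap1 (log2 fold change 0.01 ± 0.06), Nqo1 (-0.27 ± 0.24) and Gsr (-0.08 ± 0.08) did not pass. Hmox1 stood at 420, 404 and 537 CPM, and its log2 fold change of -0.11 ± 0.13 (edgeR adjusted p = 0.462) passed only when PGE2 replicate 3 was left out, with an adjusted p of 0.0392.

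Valinomycin on top of IL-4 raised Nfe2l2, while none of the 8 antioxidant genes passed in the upward direction. Of 10 members 1 rose (Nfe2l2) and 3 fell (Keap1, Srxn1 and Prdx1), against a background of 38.4% called in either direction, 19.4% higher and 18.9% lower. The members' median was -0.07, beside -0.03 for all genes. The share called was thus close to that of all genes, and the contrast lies in single members. With 19.4% of all genes called higher, the lack of a rise among 8 genes is not read as a result about the pathway. Nfe2l2 returned to 263, 243 and 230 CPM, above every IL-4 library and around its unstimulated level (log2 fold change 0.56 ± 0.05, edgeR adjusted p = 3.33e-09). Keap1, at 55.3, 55.8 and 53.2 CPM, fell by 0.22 ± 0.06 on the log2 scale (edgeR adjusted p = 0.00452). The repressor and the factor thus moved in opposite directions.

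Srxn1, at 91.6, 99.4 and 102 CPM, fell by 0.25 ± 0.05 on the log2 scale (edgeR adjusted p = 0.000757), and Prdx1, at 1031, 1185 and 1099 CPM, by 0.24 ± 0.06 (edgeR adjusted p = 0.00161). Hmox1 stood at 370, 443 and 497 CPM (log2 fold change -0.17 ± 0.13) and Gsr at 20.8, 23 and 22 CPM (-0.05 ± 0.08). The log2 fold changes of Gclc, Gclm, Nqo1 and Txnrd1 were 0.04 ± 0.06, 0.05 ± 0.06, 0.00 ± 0.23 and -0.10 ± 0.06, and none of these 6 members passed.

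Set against each other, PGE2 and valinomycin differed in 7 of 10 members, 2 higher and 5 lower with PGE2, where 63.2% of all genes were called, 31.7% higher and 31.5% lower. The share called was close to that of all genes, and the members' median was -0.19, beside 0.00 for all genes. The gaps were widest in Nfe2l2, 2.14-fold lower with PGE2 (log2 fold change -1.10 ± 0.05, edgeR adjusted p = 4.07e-15), and Srxn1, 1.92-fold higher (0.94 ± 0.05, edgeR adjusted p = 1.93e-13). Keap1 was also higher with PGE2 (0.23 ± 0.06), and Txnrd1 (-0.60 ± 0.06), Gclc (-0.32 ± 0.06) and Gclm (-0.22 ± 0.06) were lower. Prdx1 was lower by 0.16 ± 0.06 on the log2 scale (a fold of 1.12, edgeR adjusted p = 0.0155) with overlapping groups, and this call was lost without PGE2 replicate 1 or valinomycin replicate 2. Both agents were compared with the same 3 IL-4 libraries, so the separate comparisons with IL-4 are not independent of each other.

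**Figure D2:**
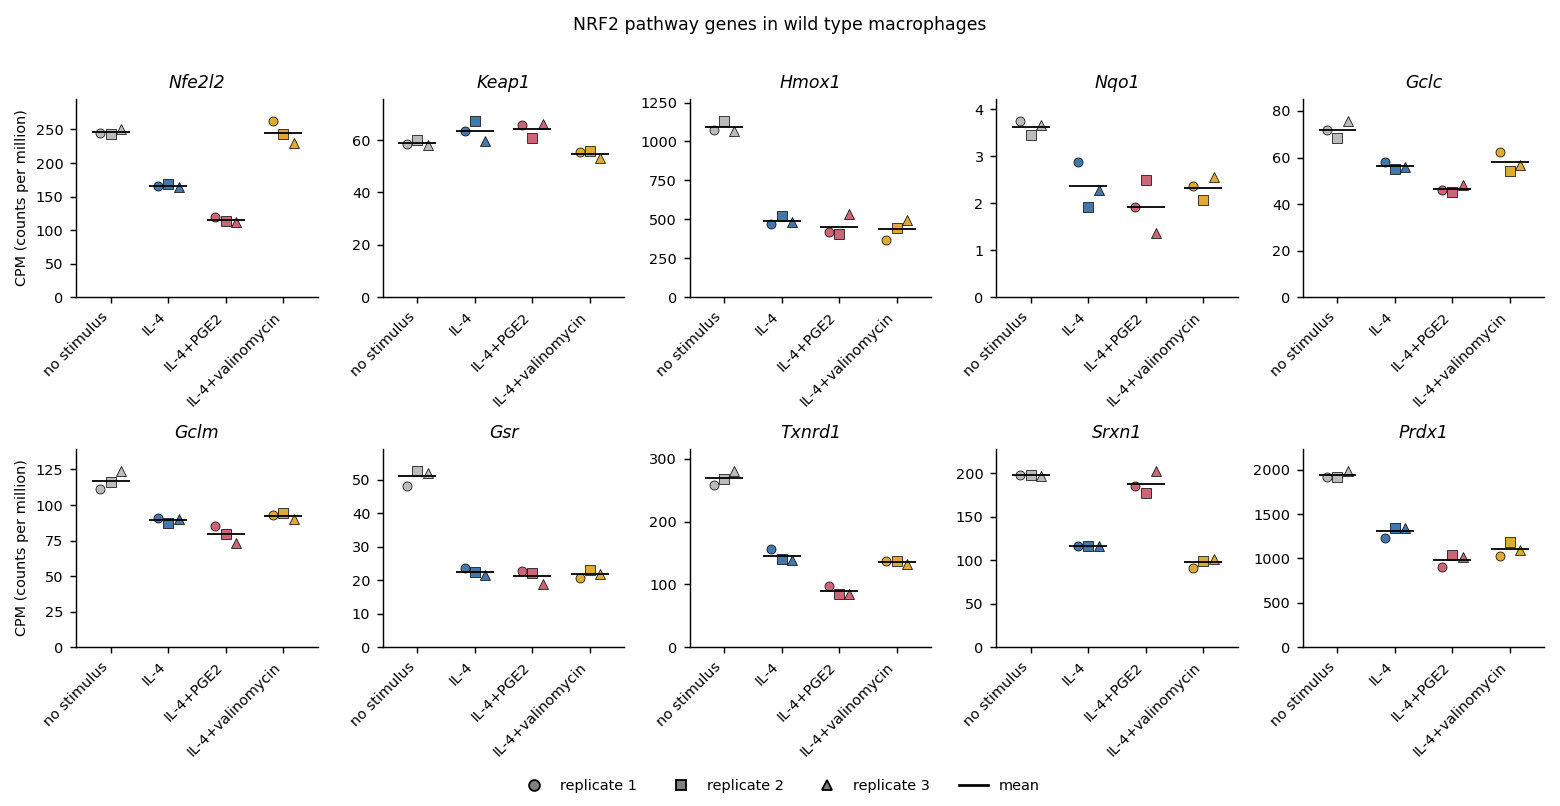
Level of each member in CPM (y axis, from 0) in the 12 wild type libraries by group, with 1 symbol per replicate and a bar at the mean. Srxn1 returns to 177 to 203 CPM with PGE2 from 116 CPM with IL-4, and Nfe2l2 reaches 230 to 263 CPM with valinomycin but 112 to 119 CPM with PGE2.

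The effect of IL-4 recurred in cells with the control shRNA, where 8 of 10 members fell and none rose, beside 34.3% of genes called in either direction, 17.2% higher and 17.1% lower. The members' median was -0.95 and that of all genes 0.00. Srxn1 went from 399, 481 and 442 CPM to 139, 221 and 155 CPM, a fall of 2.57-fold (log2 fold change -1.36 ± 0.14, edgeR adjusted p = 2.08e-06). Hmox1 went from 2155, 2496 and 2360 CPM to 725, 1205 and 824 CPM, a fall of 2.55-fold (log2 fold change -1.35 ± 0.14, edgeR adjusted p = 2.06e-06). Neither gene's groups overlapped, although IL-4 replicate 2 stood well above its partners in both.

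Gsr went from 97.3, 125 and 97.8 CPM to 40.1, 59.6 and 45 CPM (log2 fold change -1.15 ± 0.14), Prdx1 from 2728, 3477 and 3196 CPM to 1189, 1943 and 1321 CPM (-1.08 ± 0.18), and Txnrd1 from 642, 698 and 682 CPM to 288, 400 and 306 CPM (-1.03 ± 0.12). Gclm fell by 0.59 ± 0.12, Nfe2l2 by 0.46 ± 0.07 and Gclc by 0.38 ± 0.08 on the log2 scale. All 8 of these genes were separated between the groups, with no share counted for all genes beside them. Keap1 did not pass (-0.11 ± 0.08). Nqo1 stood at 12.8, 22.6 and 15.1 CPM and then at 6.44, 15.2 and 6.09 CPM, with overlap, and its log2 fold change was -0.88 ± 0.45 (edgeR adjusted p = 0.156). With the replicate number as a block Nqo1 passed (-0.89, edgeR adjusted p = 0.000978), as it did without replicate 2 in any group (-1.12, edgeR adjusted p = 1.33e-06).

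PGE2 on IL-4 in control shRNA cells raised 3 members, Nqo1, Srxn1 and Gclc, and lowered 1, Hmox1, where 59.4% of genes were called, 29.3% higher and 30.1% lower. The members' median was 0.14 and that of all genes -0.01. Nqo1 rose from 6.44, 15.2 and 6.09 CPM to 25, 55.8 and 31 CPM, 4.08-fold (log2 fold change 2.03 ± 0.43, edgeR adjusted p = 0.0011). Srxn1 rose from 139, 221 and 155 CPM to 398, 509 and 429 CPM, 2.59-fold (1.38 ± 0.14, edgeR adjusted p = 8.17e-07). Gclc rose from 126, 118 and 125 CPM to 198, 173 and 179 CPM, 1.49-fold (0.57 ± 0.08, edgeR adjusted p = 5.04e-06). In all 3 genes each PGE2 library exceeded each IL-4 library, with no share of such genes counted over all genes.

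The fall of Hmox1 with PGE2, to 732, 656 and 773 CPM, was at the threshold with overlapping groups (log2 fold change -0.35 ± 0.14, edgeR adjusted p = 0.0444). It was lost in 10 of 13 alternatives, with the replicate block (adjusted p = 0.0549) and without IL-4 replicate 2 or any of the 3 PGE2 libraries among them, and over the alternatives its adjusted p ranged from 0.00347 to 0.648. With replicate 2 left out of every group the log2 fold change was -0.04. Gsr (0.19 ± 0.14, edgeR adjusted p = 0.256) passed with the replicate block (0.20, adjusted p = 0.0189). With a replicate block within each hairpin, added after seeing the data, 6 members passed, all higher: Gclm (0.13, edgeR adjusted p = 0.0265), Gsr (0.20, edgeR adjusted p = 0.0037) and Txnrd1 (0.16, edgeR adjusted p = 0.0126) beside Nqo1, Srxn1 and Gclc. The same 6 passed without replicate 2 in any group, with Gclm at 0.23, Gsr at 0.26 and Txnrd1 at 0.19. The share of all genes called in these alternative fits is not given beside these counts. Nfe2l2 (-0.02 ± 0.07), Keap1 (-0.17 ± 0.08), Gclm (0.12 ± 0.12), Txnrd1 (0.16 ± 0.12) and Prdx1 (0.01 ± 0.18) did not pass with all libraries.

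**Figure D3:**
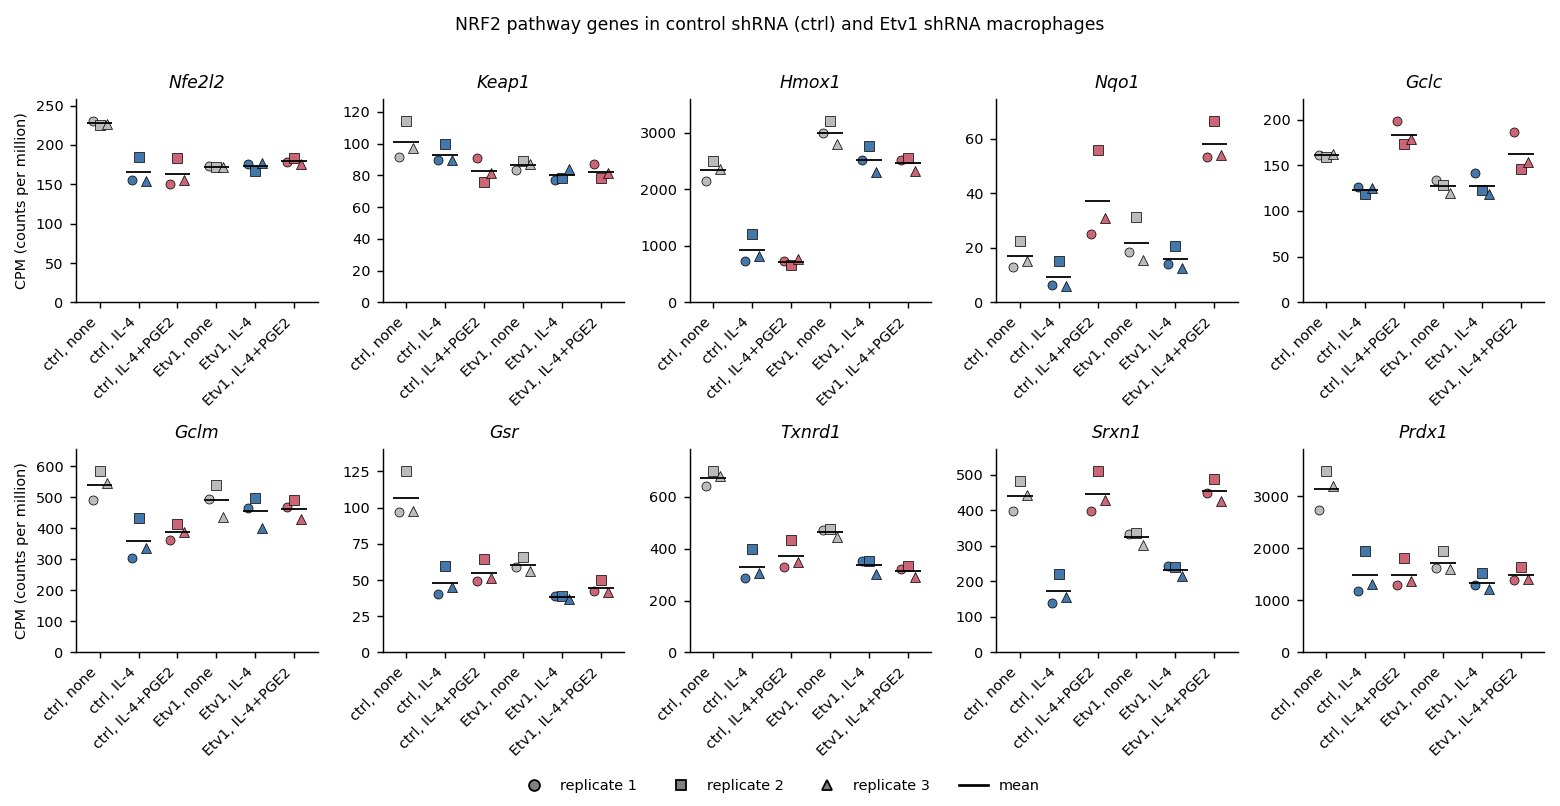
Level of each member in CPM (y axis, from 0) in the 18 shRNA libraries by hairpin and stimulus, with 1 symbol per replicate and a bar at the mean. Hmox1 stays at 2298 to 3203 CPM in every Etv1 shRNA library but lies at 656 to 1205 CPM in control shRNA cells with IL-4 or IL-4 and PGE2.

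In cells with the Etv1 shRNA, IL-4 lowered 3 members, Gsr, Txnrd1 and Srxn1, and raised none. Of all genes 18% were called, 10.9% higher and 7.16% lower, and the medians were -0.31 for the members and 0.01 for all genes. Gsr went from 59.2, 65.8 and 56.1 CPM to 38.9, 39.3 and 36.8 CPM (log2 fold change -0.66 ± 0.14, edgeR adjusted p = 0.00402), and Txnrd1 from 474, 477 and 444 CPM to 352, 354 and 301 CPM (-0.47 ± 0.12, edgeR adjusted p = 0.00884). Srxn1 went from 334, 335 and 302 CPM to 242, 240 and 215 CPM (-0.48 ± 0.14, edgeR adjusted p = 0.0264). None of the 3 overlapped, again with no share counted for all genes. The Srxn1 call was lost in 6 of 13 alternatives, 5 of which left out 1 library (IL-4 replicates 1, 2 or 3, or unstimulated replicates 1 or 2), and its adjusted p reached 0.0982.

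Nfe2l2 was level in these cells, at 173, 172 and 172 CPM without stimulus and 176, 167 and 177 CPM with IL-4 (log2 fold change 0.01 ± 0.07). Hmox1 stood at 2998, 3203 and 2803 CPM and at 2521, 2758 and 2298 CPM, separated groups whose difference did not pass (-0.25 ± 0.14, edgeR adjusted p = 0.27). Prdx1 did not pass either (-0.37 ± 0.18, edgeR adjusted p = 0.204), except with the replicate block (-0.37, edgeR adjusted p = 0.0013). With the block placed within each hairpin 5 members passed, with Prdx1 (-0.37, edgeR adjusted p = 3.54e-05) and Nqo1 (-0.46, edgeR adjusted p = 0.00979) added. Without replicate 2 in any group 5 members passed, with Hmox1 (-0.27) and Prdx1 (-0.37) added. No share of all genes from these alternative fits is given beside the counts. The remaining members were Keap1 (-0.11 ± 0.08), Nqo1 (-0.47 ± 0.41), Gclc (0.00 ± 0.08) and Gclm (-0.11 ± 0.12).

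PGE2 raised the same 3 members in Etv1 shRNA cells as it had in control shRNA cells, Nqo1, Srxn1 and Gclc, and lowered none, beside 47.5% of genes called, 24.6% higher and 22.8% lower. The medians were 0.10 for the members and 0.01 for all genes. Nqo1 rose from 14, 20.7 and 12.6 CPM to 53.4, 66.3 and 54.1 CPM, 3.66-fold (log2 fold change 1.87 ± 0.39, edgeR adjusted p = 0.00136). Srxn1 rose from 242, 240 and 215 CPM to 447, 488 and 426 CPM (0.97 ± 0.14, edgeR adjusted p = 4.57e-05), and Gclc from 141, 123 and 119 CPM to 186, 146 and 154 CPM (0.34 ± 0.08, edgeR adjusted p = 0.00166). All PGE2 libraries exceeded all IL-4 libraries in these genes, again with no share counted for all genes. Gsr (0.22 ± 0.15, edgeR adjusted p = 0.233) passed with the replicate block (0.22, adjusted p = 0.0186). With the block within each hairpin 5 members passed, with Gsr (0.22, edgeR adjusted p = 0.00423) and Prdx1 (0.15, edgeR adjusted p = 0.0348) added. Leaving out replicate 2 in every group left 3 members called. These alternative counts, too, have no share of all genes beside them.

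Compared directly with the control hairpin, Etv1 shRNA cells had lower levels of most members at rest and much more Hmox1 after IL-4. Without stimulus 7 of 10 members were lower and 1 was higher, where 51.7% of all genes were called, 24.9% higher and 26.8% lower, with medians of -0.37 for the members and -0.01 for all genes. Prdx1 was at 1617, 1956 and 1608 CPM against 2728, 3477 and 3196 CPM in control shRNA cells (log2 fold change -0.86 ± 0.18, edgeR adjusted p = 0.00123), and Gsr was 1.76-fold lower (-0.82 ± 0.14, edgeR adjusted p = 0.000117). Txnrd1 (-0.54 ± 0.12), Nfe2l2 (-0.40 ± 0.07) and Gclc (-0.33 ± 0.08) were also lower. The groups did not overlap in these 5 genes, with no share counted for all genes.

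Calls in 3 further genes of that comparison were less firm. Srxn1 (-0.44 ± 0.14, edgeR adjusted p = 0.0148) lost its call without Etv1 shRNA replicate 3 or control shRNA replicate 2. Keap1 (-0.22 ± 0.08, edgeR adjusted p = 0.0245) lost it without Etv1 shRNA replicate 1 or 3 or control shRNA replicate 2. Hmox1 was higher by 0.36 ± 0.14 on the log2 scale (edgeR adjusted p = 0.0426), a call lost in 6 of 12 alternatives with an adjusted p of up to 0.136, among them each of the 3 control shRNA libraries and Etv1 shRNA replicates 1 and 2 left out. Without control shRNA replicate 2 the count of members called fell from 8 to 5, and without replicate 2 in any group it was 7, with Keap1 no longer called (-0.14, edgeR adjusted p = 0.0927). Gclm (-0.14 ± 0.12) and Nqo1 (0.40 ± 0.40) did not pass.

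Under IL-4, Hmox1 was 2.75-fold higher in Etv1 shRNA cells, at 2521, 2758 and 2298 CPM against 725, 1205 and 824 CPM (log2 fold change 1.46 ± 0.14, edgeR adjusted p = 6.83e-07). Under IL-4 with PGE2 it was 3.41-fold higher, at 2511, 2553 and 2316 CPM against 732, 656 and 773 CPM (1.77 ± 0.14, edgeR adjusted p = 7.37e-08). Every Etv1 shRNA library exceeded every control shRNA library, and both calls held in all 12 alternatives. In the fit without a block, Hmox1 was the only member called under IL-4 with PGE2, where 54.3% of all genes were called (27.6% higher, 26.7% lower) and the medians were 0.01 for the members and 0.00 for all genes. Without replicate 2 in any group 5 members passed there: Hmox1, Nfe2l2 (0.21), Nqo1 (0.90), Gclm (0.25) and Gsr (-0.27). With the replicate number as a block, Nqo1 (0.69), Gclm (0.25), Gsr (-0.30), Txnrd1 (-0.22) and Gclc (-0.18) passed beside Hmox1, with edgeR adjusted p-values from 0.000324 to 0.0259. The count also rose without single libraries, to 4 without control shRNA replicate 2 and to 2 without replicate 1 of either hairpin. Counts of all genes in these alternative fits are not given here, so the added calls have no background beside them.

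With IL-4 alone, 3 members were higher (Hmox1, Srxn1 and Gclm) and 1 lower (Keap1) in Etv1 shRNA cells, where 51.0% of genes were called, 25.4% higher and 25.6% lower, and the medians were 0.06 for the members and 0.00 for all genes. Srxn1 (0.44 ± 0.14, edgeR adjusted p = 0.0183) and Gclm (0.35 ± 0.12, edgeR adjusted p = 0.0245) had overlapping groups, and each call was lost in 6 of 12 alternatives. Keap1 was lower by 0.22 ± 0.08 on the log2 scale (edgeR adjusted p = 0.0263), a call lost in 4 of 12. The count of 4 members fell to 1 without Etv1 shRNA IL-4 replicate 1 or 2, and to 2 without control shRNA IL-4 replicate 3. Without replicate 2 in any group 5 members passed, all higher: Hmox1 (1.64), Srxn1 (0.64), Gclm (0.44), Nfe2l2 (0.19, edgeR adjusted p = 0.00563) and Nqo1 (1.07, edgeR adjusted p = 4.57e-06). Keap1 did not pass there (-0.15, edgeR adjusted p = 0.0875). With the replicate number as a block, Gsr (-0.31, edgeR adjusted p = 0.00137) and Nqo1 (0.80, edgeR adjusted p = 0.002) passed beside the members called without it. Here as well, the alternative counts have no share of all genes beside them. Over all 3 conditions the summed macrophage markers were lower in Etv1 shRNA libraries (8902 to 10386 CPM against 15895 to 21465 CPM). Most of that gap was Lyz2, with means of 4401, 3981 and 4436 CPM against 13547, 10625 and 12296 CPM. The sum therefore does not show that the other markers were lower. The part of the marker difference in the results for the members was not tested.

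The fall of several members with IL-4 was smaller in Etv1 shRNA than in control shRNA cells, partly from lower levels at rest. The difference of the IL-4 effects, Etv1 shRNA minus control shRNA, passed in 3 of 10 members, all higher, while 4.51% of all genes were called, 2.71% higher and 1.81% lower. The medians were 0.49 for the members and 0.02 for all genes. The difference was 1.10 ± 0.20 for Hmox1 (edgeR adjusted p = 0.00468), 0.88 ± 0.20 for Srxn1 (edgeR adjusted p = 0.0189) and 0.47 ± 0.10 for Nfe2l2 (edgeR adjusted p = 0.00834), all on the log2 scale. Mean Nfe2l2 was lower in Etv1 shRNA cells at rest (172 against 227 CPM) and alike under IL-4 (173 against 165 CPM). Hmox1 differed mainly under IL-4 (2525 against 918 CPM, and 3001 against 2337 CPM at rest). Srxn1 was lower at rest (324 against 441 CPM) and higher under IL-4 (232 against 172 CPM). The calls of Hmox1 and Nfe2l2 held in all 19 alternatives. That of Srxn1 was lost without unstimulated Etv1 shRNA replicate 3, Etv1 shRNA IL-4 replicate 1 or control shRNA IL-4 replicate 3.

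With the replicate number as a block 8 members passed in this difference, all positive: Hmox1 (1.11), Srxn1 (0.89), Prdx1 (0.73), Txnrd1 (0.56), Gsr (0.50), Gclm (0.49), Nfe2l2 (0.48) and Gclc (0.38), with edgeR adjusted p-values from 0.000205 to 0.00629. Of all genes 984 were called in that fit, against 559 without a block. The same 8 passed with the block within each hairpin, where 1413 of all genes were called. Without replicate 2 in any group 8 passed as well, with Nqo1 in place of Gclc, and without control shRNA IL-4 replicate 2 alone 7 did. In the fit without a block, the values were 0.71 ± 0.25 for Prdx1, 0.56 ± 0.16 for Txnrd1, 0.49 ± 0.20 for Gsr, 0.48 ± 0.17 for Gclm and 0.38 ± 0.11 for Gclc, with edgeR adjusted p-values of 0.158, 0.0699, 0.216, 0.138 and 0.0638. Keap1 stood at 0.00 ± 0.11 and Nqo1 at 0.41 ± 0.61. The direction was the same in both fits for these 8 members, and the number that passed depended on how replicate 2 was treated.

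The count of members whose PGE2 effect differed between hairpins depended on how replicates were treated. In the fit without a block, 0 of 10 members passed by edgeR and 0 by DESeq2, and 0 members had an unadjusted p under 0.05 in edgeR, while 11.6% of all genes were called, 6.03% higher and 5.58% lower. The medians were -0.03 for the members and 0.01 for all genes. This does not show that the effects were alike. With a replicate block within each hairpin, an alternative added after seeing the data, 3 members passed, all lower: Srxn1 (-0.42, edgeR adjusted p = 0.000524), Gclc (-0.23, edgeR adjusted p = 0.0229) and Txnrd1 (-0.25, edgeR adjusted p = 0.0236). Of all genes 2563 were called in that fit, against 1438 without a block. The 95% interval of the difference on the log2 scale, from the distribution of edgeR's test, ran from -1.41 to 1.10 for Nqo1, from -0.83 to 0.01 for Srxn1 and from -0.47 to 0.01 for Gclc. Without replicate 2 in any group Srxn1 passed, with a difference of -0.56 (edgeR adjusted p = 0.000574), and without control shRNA IL-4 replicate 2 or Etv1 shRNA PGE2 replicate 1 the count was 1.

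The effect of PGE2 on several members differed between wild type and control shRNA cells. In a joint fit of both experiments, added after the separate fits, the PGE2 effect in control shRNA minus that in wild type cells passed in 5 of 10 members, all positive, where 19.1% of 13358 genes were called, 8.52% higher and 10.5% lower. The medians were 0.46 for the members and -0.03 for all genes. Gclc differed by 0.84 ± 0.11 on the log2 scale (edgeR adjusted p = 1.12e-06): it fell with PGE2 in wild type and rose in control shRNA cells. Txnrd1 differed by 0.84 ± 0.14 (edgeR adjusted p = 0.000106) and Nfe2l2 by 0.51 ± 0.09 (edgeR adjusted p = 0.00011), and both had fallen in wild type. Srxn1 rose in both experiments and differed by 0.67 ± 0.16 (edgeR adjusted p = 0.0044), a call lost when only the compared groups were fitted.

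Nqo1 differed by 2.28 ± 0.74 (edgeR adjusted p = 0.0334), a call lost in 8 of 17 alternatives with an adjusted p of up to 0.0967, 7 of them without 1 of the libraries control shRNA IL-4 replicates 1 and 3, wild type IL-4 replicates 1, 2 and 3, and wild type PGE2 replicates 1 and 3. In wild type it held few counts, at 1.92, 2.49 and 1.36 CPM with PGE2. Without control shRNA IL-4 replicate 2, 8 of 10 members passed. For IL-4 against no stimulus the same difference passed in 1 of 10 members, where 9.18% of genes were called, 5.17% higher and 4.01% lower, with medians of -0.19 for the members and 0.01 for all genes. That member was Srxn1 (-0.57 ± 0.16, edgeR adjusted p = 0.0237), and its call was lost in 8 of 17 alternatives. The count was 0 without control shRNA replicates 2 or 3 (no stimulus) or 1 or 3 (IL-4), or wild type replicates 1 or 3 (no stimulus) or 2 (IL-4), and 2 without control shRNA IL-4 replicate 2. The experiments differ in shRNA and in every library, and the neutrophil markers summed to 166 to 283 CPM in wild type against at most 7.04 CPM in shRNA libraries. Which of these differences goes with the members' response cannot be told apart.

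**Figure D4:**
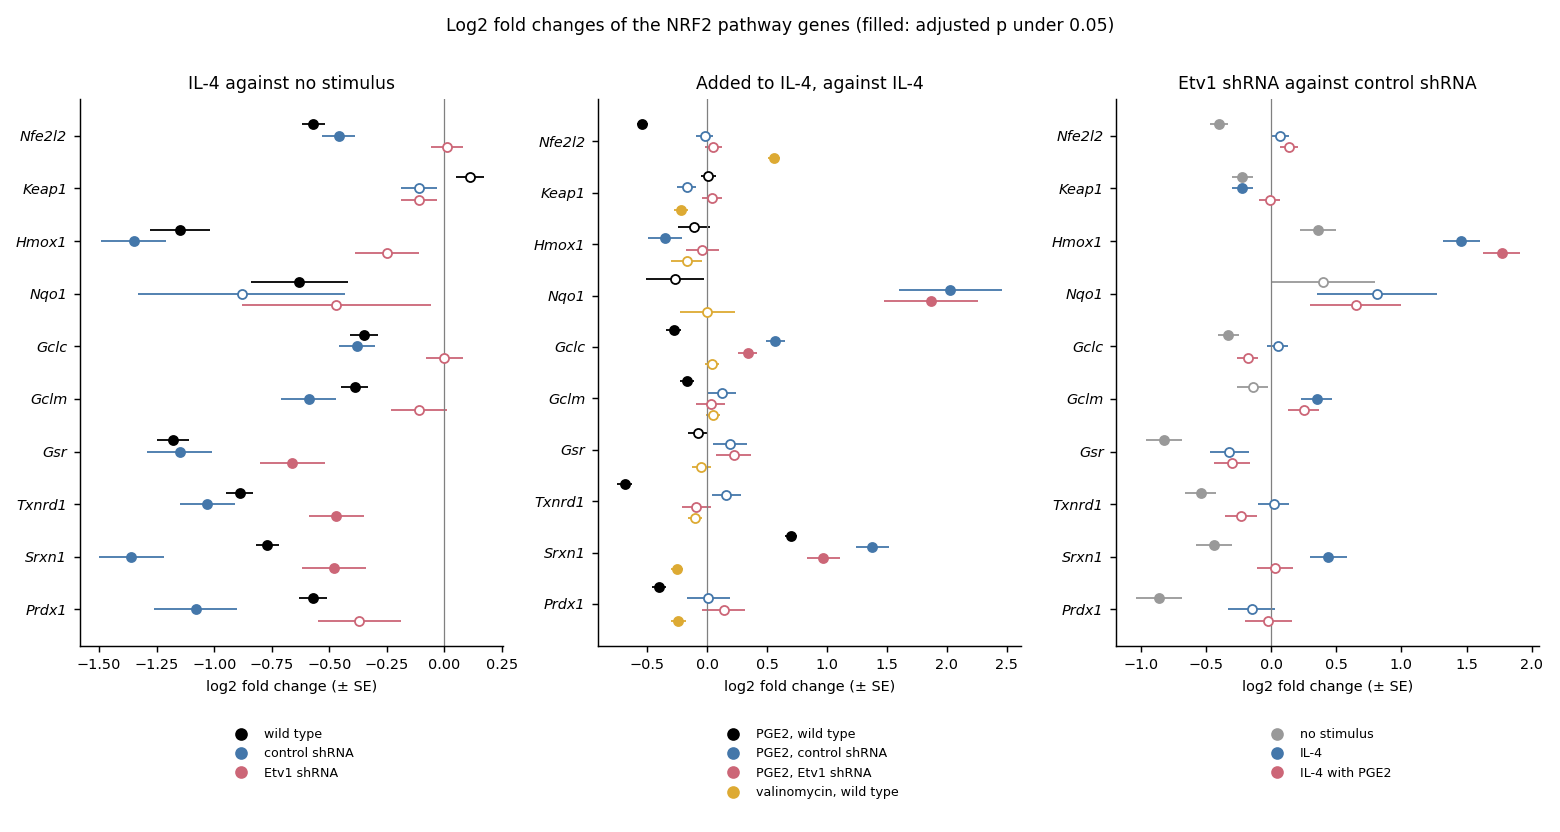
Log2 fold changes with standard errors (x axis) of the members (y axis) for IL-4, for agents added to IL-4, and for the Etv1 against the control hairpin, filled where the edgeR adjusted p is under 0.05. IL-4 effects lie below 0 for all members but Keap1 in wild type (0.11) and Nfe2l2 and Gclc in Etv1 shRNA cells (0.01 and 0.00), and Srxn1 lies at 0.70, 1.38 and 0.97 with PGE2.

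The counts of the wider pathway lists are read against the shares of all tested genes called higher and lower in the same comparison. With IL-4 these were 24.0% and 22.4% in wild type, 17.2% and 17.1% in control shRNA cells, and 10.9% and 7.16% in Etv1 shRNA cells. With PGE2 they were 29.9% and 29.5%, 29.3% and 30.1%, and 24.6% and 22.8% in the same order. Valinomycin called 19.4% of all genes higher and 18.9% lower, and PGE2 against valinomycin 31.7% and 31.5%. For the Etv1 hairpin against the control hairpin, 24.9% were higher and 26.8% lower without stimulus, 25.4% and 25.6% with IL-4, and 27.6% and 26.7% with IL-4 and PGE2. Each list holds 9 to 31 tested genes, so 1 gene moves its share by several percentage points.

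Regulators of the pathway moved in both directions. The list of 19 held 18 tested genes. With IL-4, 8 rose and 4 fell in wild type (median 0.12), 5 rose and 4 fell in control shRNA cells (median 0.08), and 5 rose and 1 fell in Etv1 shRNA cells (median 0.07). The share that fell in wild type, 22.2%, was near that of all genes, and the share that rose was 44.4%. Bach1, which represses NRF2 targets such as Hmox1 until heme displaces it, rose with IL-4 in wild type from 112, 119 and 118 CPM to 206, 188 and 193 CPM (log2 fold change 0.75 ± 0.05, edgeR adjusted p = 1.2e-11) and by 0.23 ± 0.07 in control shRNA cells. Hmox1 fell in both, and a link between these genes was not tested. Sqstm1, whose protein p62 captures KEAP1 and which is itself an NRF2 target, fell with IL-4 in wild type (log2 fold change -0.55 ± 0.06), with the control hairpin (-0.90 ± 0.10) and with the Etv1 hairpin (-0.60 ± 0.10). Prkcd, a kinase that phosphorylates NRF2, rose by 1.71 ± 0.05, 1.91 ± 0.07 and 1.31 ± 0.07, and the coactivator gene Crebbp rose by 0.34 ± 0.05 and 0.22 ± 0.05 in the shRNA experiment.

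With PGE2 9 regulators rose and 5 fell in wild type (median 0.17), 8 rose and 4 fell in control shRNA cells (median 0.13), and 3 rose and 3 fell in Etv1 shRNA cells (median 0.05). The shares that rose were 50%, 44.4% and 16.7%, the last below that of all genes, and those that fell were 27.8%, 22.2% and 16.7%, each below it. Bach1 rose with PGE2 from 142, 142 and 139 CPM to 300, 282 and 323 CPM in control shRNA cells (1.10 ± 0.07, edgeR adjusted p = 9.86e-11), by 0.62 ± 0.07 in Etv1 shRNA cells and by 0.19 ± 0.05 in wild type. The rise in Etv1 shRNA cells was smaller than in control shRNA cells by 0.48 ± 0.10 (edgeR adjusted p = 0.00361). Prkcd fell, with log2 fold changes of -0.85 ± 0.05 in wild type, -0.86 ± 0.07 with the control hairpin and -0.66 ± 0.07 with the Etv1 hairpin. Mafg, a small MAF partner of NRF2, rose by 0.62 ± 0.05 in wild type, where the nuclear receptor gene Rxra fell by 0.61 ± 0.07.

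Valinomycin raised 9 regulators and lowered 3 (median 0.21), led by the small MAF genes Mafk (1.40 ± 0.08, edgeR adjusted p = 9.35e-12) and Maff (1.73 ± 0.14, edgeR adjusted p = 5.52e-09). Sqstm1 rose from 335, 388 and 392 CPM to 633, 617 and 570 CPM (0.71 ± 0.06). Against valinomycin, PGE2 gave 7 higher and 9 lower regulators (median -0.25), with Mafk lower by 1.70 ± 0.08. Under the Etv1 hairpin 2 regulators were higher and 9 lower without stimulus (median -0.51), 4 and 10 with IL-4 (median -0.31), and 4 and 13 with IL-4 and PGE2 (median -0.45). The shares called lower were 50%, 55.6% and 72.2%, beside 26.8%, 25.6% and 26.7% of all genes. Nfe2l1, a relative of Nfe2l2, was lower without stimulus (-0.69 ± 0.05) and with IL-4 (-0.68 ± 0.05), as was Gsk3b, a kinase that promotes NRF2 degradation (-0.66 ± 0.06 and -0.73 ± 0.06). Bach1 was lower in all 3 conditions, by log2 fold changes of -0.68 ± 0.07, -0.71 ± 0.07 and -1.19 ± 0.07.

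Among 31 other target genes, more fell than rose with IL-4 in each kind of cell. In wild type 5 of 30 tested rose and 22 fell (median -0.29), in control shRNA cells 3 of 31 rose and 20 fell (median -0.42), and in Etv1 shRNA cells 4 rose and 8 fell (median -0.20). The shares that fell were 73.3%, 64.5% and 25.8%, beside 22.4%, 17.1% and 7.16% of all genes. The aldo-keto reductase gene Akr1b8 fell by 0.96 ± 0.06 and the exporter gene Abcc1 by 0.54 ± 0.04 in wild type. Osgin1, a target linked to growth control, went the other way there, rising by 1.08 ± 0.08, and its IL-4 effect was lower in control shRNA cells by 1.87 ± 0.18. In control shRNA cells Abcc1 fell by 0.82 ± 0.07 and Pgd, an NADPH-producing enzyme of the pentose phosphate pathway, by 0.70 ± 0.07.

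With PGE2 8 other targets rose and 10 fell in wild type (median -0.07), 13 rose and 4 fell in control shRNA cells (median 0.19), and 12 rose and 3 fell in Etv1 shRNA cells (median 0.20). In wild type the shares, 26.7% and 33.3%, were near those of all genes. The shares that rose in control and Etv1 shRNA cells were 41.9% and 38.7%. Htatip2 rose in wild type (0.79 ± 0.06), control shRNA (1.10 ± 0.05) and Etv1 shRNA cells (0.96 ± 0.05), and the pentose phosphate enzyme gene Tkt fell in all 3 (-0.80 ± 0.05, -0.86 ± 0.05 and -0.64 ± 0.05). Ugdh, which supplies UDP-glucuronic acid, rose by 1.58 ± 0.08 in control shRNA cells. The PGE2 effect in control shRNA minus wild type cells was called higher in 10 and lower in 1 of the 31 (median 0.29), where 8.52% and 10.5% of all genes were, led by Txn1, the thioredoxin gene (0.56 ± 0.08), Pgd (0.52 ± 0.08) and Esd (0.89 ± 0.15). Valinomycin raised 3 and lowered 13 (median -0.19), the latter 43.3% of the list, with the heme transporter gene Slc48a1 lower by 0.40 ± 0.04 and the NADPH-producing enzyme gene G6pdx by 0.39 ± 0.05. PGE2 against valinomycin gave 11 higher and 8 lower (median 0.07), near the shares of all genes. Under the Etv1 hairpin 5 were higher and 14 lower without stimulus (median -0.25), 10 and 7 with IL-4 (median 0.09), and 11 and 10 with IL-4 and PGE2 (median 0.16). The share lower without stimulus was 45.2%, and the counts under IL-4 and IL-4 with PGE2 were within 10 percentage points of all genes. Mgst1, a microsomal glutathione transferase gene, stood at -1.35 ± 0.14 without stimulus, and Htatip2 and G6pdx at 0.51 ± 0.05 and 0.54 ± 0.06 with IL-4.

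Slc7a11, the cystine importer that feeds glutathione synthesis, rose with both agents in wild type. It stood at 13.3, 12.1 and 12 CPM with IL-4, at 17.6, 22.7 and 24.8 CPM with PGE2 (log2 fold change 0.79 ± 0.11, edgeR adjusted p = 1.64e-06) and at 20, 18.7 and 18.4 CPM with valinomycin (0.61 ± 0.11, edgeR adjusted p = 0.00013). In control shRNA cells it rose from 6, 16.2 and 6.09 CPM to 49.8, 146 and 67.2 CPM with PGE2 (3.25 ± 0.57, edgeR adjusted p = 0.000267), and in Etv1 shRNA cells from 3.21, 6.17 and 3.54 CPM to 22.8, 33.4 and 19.1 CPM (2.52 ± 0.67, edgeR adjusted p = 0.00747). Replicate 2 was its highest library in all 6 shRNA groups. With both IL-4 and PGE2 Slc7a11 was lower in Etv1 shRNA cells by 1.80 ± 0.50 on the log2 scale (edgeR adjusted p = 0.0081).

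**Figure D5:**
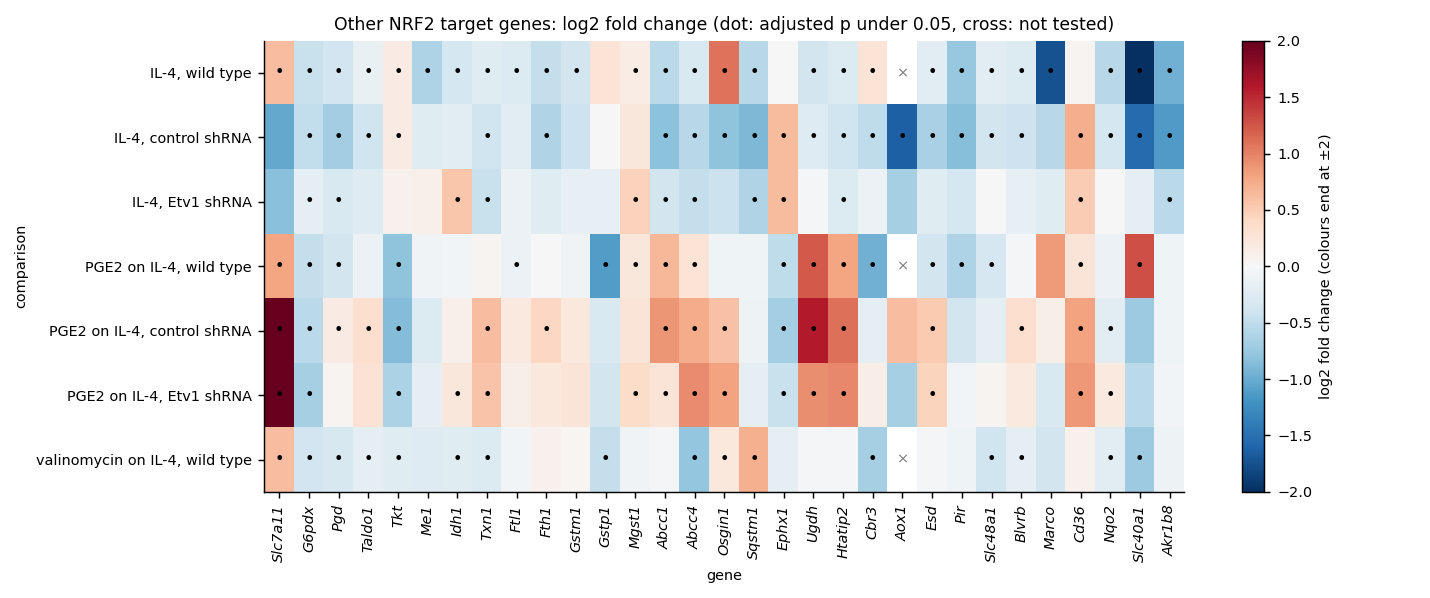
Log2 fold changes of the 31 other NRF2 target genes (x axis) in 7 comparisons (y axis), with a dot where the edgeR adjusted p is under 0.05 and a cross where a gene was not tested. Of 30 tested genes 22 fell with IL-4 in wild type, and 13 of 31 rose with PGE2 in control shRNA cells, where Slc7a11 reached 3.25, beyond the end of the colour scale.

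Other genes of glutathione metabolism, 26 tested of 30 in wild type and 27 in the shRNA experiment, had 11 that rose and 5 that fell with IL-4 in wild type (median 0.18), 4 and 2 in control shRNA cells (median 0.01), and 5 and 0 in Etv1 shRNA cells (median 0.04). The shares that rose were 42.3%, 14.8% and 18.5%, beside 24.0%, 17.2% and 10.9% of all genes. Gsto1, a glutathione transferase gene, rose by 0.98 ± 0.05, 1.19 ± 0.07 and 0.73 ± 0.07, and Ggt5 by 2.83 ± 0.19, 2.74 ± 0.20 and 1.15 ± 0.15. With PGE2 5 rose and 10 fell in wild type (median -0.11), 7 and 9 in control shRNA cells (median -0.02), and 9 and 10 in Etv1 shRNA cells (median -0.03). The shares that fell were 38.5%, 33.3% and 37.0%, beside 29.5%, 30.1% and 22.8% of all genes. The glutathione peroxidase gene Gpx1 fell in all 3 (-0.48 ± 0.04, -0.70 ± 0.06 and -0.39 ± 0.06). Valinomycin raised 4 and lowered 11 (median -0.16), the latter 42.3% of the list beside 18.9% of all genes. The increase was steepest in Chac1, which degrades glutathione, from 0.697, 0.638 and 1.02 CPM to 32.4, 32.8 and 22.4 CPM (log2 fold change 5.19 ± 0.21, edgeR adjusted p = 5.53e-14), and Slc3a2, the partner chain of Slc7a11, rose by 0.83 ± 0.05. PGE2 against valinomycin gave 6 higher and 13 lower (median -0.18), 50% lower beside 31.5% of all genes. Under the Etv1 hairpin 9 were higher and 9 lower without stimulus, 8 and 9 with IL-4, and 8 and 7 with IL-4 and PGE2 (medians -0.11, -0.13 and 0.11), each within 10 percentage points of the share of all genes. Slc3a2 was lower in all 3 conditions (-0.61 ± 0.06, -0.62 ± 0.06 and -0.81 ± 0.06).

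In the thioredoxin, peroxiredoxin and dismutase list, 20 of 21 genes were tested. IL-4 raised 1 and lowered 8 in wild type (median -0.08), raised 2 and lowered 10 in control shRNA cells (median -0.31), and raised 2 and lowered 1 in Etv1 shRNA cells (median -0.10). The shares lowered were 40.0%, 50% and 5.00%, beside 22.4%, 17.1% and 7.16% of all genes. Cat, the catalase gene, fell by 0.53 ± 0.04 and Sesn1 by 0.96 ± 0.05 in wild type, and Prdx5 by 0.60 ± 0.08 in control shRNA cells. PGE2 raised 5 and lowered 10 in wild type (median -0.13), 6 and 6 in control shRNA cells (median -0.04) and 8 and 5 in Etv1 shRNA cells (median 0.04). In control shRNA cells the shares, 30% each way, were those of all genes within 1 percentage point, while 50% were lowered in wild type and 40.0% raised in Etv1 shRNA cells. Sesn3 rose by 1.60 ± 0.12 in wild type and 1.92 ± 0.20 in Etv1 shRNA cells, and mitochondrial Prdx3 fell by 0.76 ± 0.06 and 0.50 ± 0.06 in control and Etv1 shRNA cells. Valinomycin raised 1, Sesn2, a stress-induced sestrin (1.81 ± 0.11), and lowered 6 (median -0.12), 30% of the list beside 18.9% of all genes. Txnip, the thioredoxin inhibitor, rose with IL-4 in control and Etv1 shRNA cells (0.62 ± 0.06 and 0.46 ± 0.06), stood at 0.02 ± 0.13 in wild type, and was lower under the Etv1 hairpin in the 3 conditions (-0.99 ± 0.06, -1.15 ± 0.06 and -0.98 ± 0.06). Txn1 was lower there as well (-0.88 ± 0.07, -0.92 ± 0.07 and -0.97 ± 0.07). Of the whole list 5 were higher and 8 lower under the Etv1 hairpin without stimulus, 6 and 4 with IL-4, and 7 and 6 with IL-4 and PGE2 (medians 0.00, 0.09 and 0.15), and PGE2 against valinomycin gave 6 higher and 7 lower (median -0.05). Of these the 40.0% lower without stimulus stood over 10 percentage points from the share of all genes, 26.8%, and the others did not.

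Heme and iron genes, 23 tested of 25 in wild type and 24 in the shRNA experiment, give the setting of Hmox1. IL-4 raised 5 and lowered 12 in wild type (median -0.20), 4 and 7 in control shRNA cells (median -0.03), and 4 and 1 in Etv1 shRNA cells (median -0.02). The shares lowered were 52.2% in wild type and 29.2% in control shRNA cells, beside 22.4% and 17.1% of all genes, and both shares in Etv1 shRNA cells were near those of all genes. Slc40a1, the iron exporter ferroportin, fell by 2.30 ± 0.12 and Hmox2, the constitutive heme oxygenase, by 0.44 ± 0.05 in wild type, while Alas1, which starts heme synthesis, rose by 0.93 ± 0.06 and 0.52 ± 0.07 in control and Etv1 shRNA cells. PGE2 raised 6 and lowered 9 in wild type (median 0.00), 5 and 8 in control shRNA cells (median -0.04), and 3 and 4 in Etv1 shRNA cells (median -0.02). The first pair of these comparisons lay within 10 percentage points of all genes, and the shares in Etv1 shRNA cells, 12.5% raised and 16.7% lowered, were below those of all genes. The ferrireductase gene Steap3 fell in all 3 (-1.36 ± 0.05, -1.39 ± 0.10 and -0.50 ± 0.09). Valinomycin raised 3 and lowered 6 (median -0.09), also within 10 points, and PGE2 against valinomycin gave 11 higher and 6 lower (median 0.12), 47.8% higher beside 31.7% of all genes. Under the Etv1 hairpin 6 were higher and 6 lower without stimulus, 8 and 5 with IL-4, and 9 and 6 with IL-4 and PGE2 (medians -0.04, 0.02 and -0.03), each within 10 percentage points of the share of all genes. Fth1, the ferritin heavy chain, was lower in all 3 (-1.03 ± 0.10, -0.67 ± 0.10 and -0.87 ± 0.10), opposite in direction to Hmox1.

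The 9 genes of the NADPH oxidase, the superoxide source of phagocytes, split under IL-4: 3 rose and 3 fell in wild type, 4 and 2 in control shRNA cells, and 3 and 0 in Etv1 shRNA cells (medians 0.09, 0.14 and 0.12). The shares that rose were 33.3%, 44.4% and 33.3%, each over that of all genes, in a list where 1 gene is 11.1%. Ncf1 fell by 0.94 ± 0.05 and Cybb by 0.71 ± 0.05 in wild type while Ncf4 rose by 0.66 ± 0.05. With PGE2 3 rose and 3 fell in wild type, 3 and 3 in control shRNA cells, and 3 and 2 in Etv1 shRNA cells (medians 0.09, -0.05 and -0.07), all near the shares of all genes. Hvcn1, the voltage-gated proton channel, fell in all of them (-2.79 ± 0.14, -2.92 ± 0.13 and -2.99 ± 0.18), and Cybc1 rose (0.50 ± 0.05, 0.52 ± 0.06 and 0.44 ± 0.06). Valinomycin raised 0 and lowered 3 (median -0.02), and PGE2 against valinomycin gave 4 higher and 2 lower (median 0.11). Under the Etv1 hairpin 8, 6 and 7 of the 9 were lower and 0, 0 and 1 higher in the 3 conditions (medians -0.58, -0.71 and -0.79). The shares lower were 88.9%, 66.7% and 77.8%, beside 26.8%, 25.6% and 26.7% of all genes. Cybb was lower in all 3 (-2.56 ± 0.13, -2.13 ± 0.13 and -2.34 ± 0.13). The summed macrophage markers were lower in the same libraries, mostly through Lyz2, as given above.

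The remaining counts of these lists concern differences of effects. For Etv1 shRNA minus control shRNA, the IL-4 effect was called higher and lower in 1 and 1 regulators, 5 and 0 other targets, 0 and 2 glutathione, 3 and 0 thioredoxin, 0 and 1 heme and iron, and 1 and 1 oxidase genes, where 2.71% of all genes were higher and 1.81% lower. Idh1, an NADPH-producing enzyme, led the other targets with a difference of 0.76 ± 0.12 (edgeR adjusted p = 0.000717). The PGE2 effect was called higher and lower in 2 and 5 regulators, 2 and 2 other targets, 1 and 0 glutathione, 1 and 0 thioredoxin, 4 and 0 heme and iron, and 1 and 0 oxidase genes, beside 6.03% and 5.58% of all genes. For control shRNA minus wild type, the IL-4 effect was called higher and lower in 0 and 1, 2 and 4, 1 and 2, 3 and 2, 2 and 2, and 1 and 0 genes of these lists in the same order, beside 5.17% and 4.01% of all genes. The PGE2 effect was called in 3 and 0, 10 and 1, 5 and 5, 5 and 2, 4 and 3, and 1 and 1, beside 8.52% and 10.5%. Several genes stand in more than 1 list, among them Sqstm1, Txn1, Fth1, Slc7a11 and Slc48a1.

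Across the 10 group means, centred within each experiment, Gsr, Prdx1 and Txnrd1 followed each other most closely, with Pearson's r of 0.95 for Gsr and Prdx1, 0.93 for Txnrd1 and Prdx1 and 0.92 for Gsr and Txnrd1. The lowest value among the members was -0.48, for Keap1 and Nqo1. The points share libraries and scaling, and these values describe the 10 means only. Among 3689 genes expressed in both experiments and varying between groups, those most like Srxn1 were Adssl1 (0.98), Rps6ka5 (0.96) and Lyn (0.95), and those most like Hmox1 were Plscr1 (0.98), Ociad2 (0.98) and Chml (0.97). Nfe2l2 was followed most closely by Nr1h3 (0.89), Il17ra (0.89) and Pik3r5 (0.88), Keap1 by Klhl8 (0.85), Arhgef40 (0.84) and Hcls1 (0.83), and Nqo1 by Rfc3 (0.95), Chst11 (0.94) and Serpinb6a (0.91).

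The remaining members called with PGE2 or valinomycin had neighbours of the same kind. For Gclc these were Slc8b1 (0.95), Slc22a4 (0.86) and Hgf (0.84), and for Gclm the catalase gene Cat (0.95), Mfsd6 (0.94) and Dnajb4 (0.93). Txnrd1 was closest to Prim1 (0.97), Stk10 (0.96) and Ccne2 (0.96), and Prdx1 to Stk10 (0.97), Gm21399 (0.97) and E2f2 (0.96). With 10 points and 3689 candidates, high values arise readily, and the list names likeness of pattern alone.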

How the data were processed

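The authors deposited raw read counts per Ensembl gene, 1 table per library, and the submitters' processing notes name, without versions, the tools featureCounts, STAR, DESeq2 and deepTools and the build GRCm38. Libraries were stranded poly(A), per the labels' protocols. Whether counting used strand is not given in the sources used here. Counts of overlapping genes and of genes with near-identical copies are therefore uncertain. Symbols came from GENCODE M21 and matched 42462 of 43629 IDs (97.33%), and unmatched IDs held 0.19% of reads.

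Members and lists were chosen with earlier results of these data known. Erythroid markers are not reported here. The named genes were the members, Etv1, Slc7a11, Chac1, Bach1, Sqstm1, Txnip, up to 3 called genes of each list and contrast with the smallest adjusted p and at least 5 CPM in the higher group, and up to 3 genes most like each member called with PGE2 or valinomycin. Likeness was Pearson's r of group means of log2 CPM (prior count 2) among genes with at least 5 CPM and a standard deviation of at least 0.3.

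Each experiment was fitted alone with edgeR 4.0.16 in R 4.3.3 (TMM, filterByExpr, robust quasi-likelihood, Benjamini-Hochberg, called under 0.05). The fit was also run on simulated counts for PGE2 on IL-4 in wild type and control shRNA cells. Those counts were drawn independently for each library. They held no deviation shared by replicate number, so they do not test the fit for that feature of the shRNA libraries. CPM used TMM library sizes. The joint fit of both experiments was added after seeing the data. DESeq2 1.42.0, other size factors, no filter, only the compared groups, a replicate block and leaving out each library were the alternatives. A replicate block within each hairpin, and leaving out replicate 2 of every shRNA group, were added after seeing the data. Each library counted once. Between replicates of a group, chi-square over its degrees of freedom was at least 1.235 (chi-square p = 3.06e-71), more than counting noise alone. This does not show that the libraries were independent. Pairs of unstimulated wild type libraries stood at 1.235, 2.468 and 1.986, beside 2.791 to 6.030 in the other wild type groups. The labels do not say whether replicates were separate mice or cultures, and p-values measure how these samples vary among themselves, which may be technical. Deviations of same-numbered libraries correlated at -0.08 to 0.20 in wild type. They were over 0.1 for every pair between IL-4 and either neighbouring condition within a hairpin (0.11 to 0.49) and not between hairpins in the same condition (-0.02 to 0.25). Between no stimulus and IL-4 with PGE2 they were 0.11 to 0.38 within the control and 0.10 to 0.26 within the Etv1 hairpin. Replicate 2 also correlated between hairpins in the same condition (0.22, 0.17 and 0.25). Unstimulated control shRNA and Etv1 shRNA libraries with IL-4 and PGE2 correlated at 0.10 to 0.15. Same-numbered libraries thus tended to deviate together more within a hairpin than between hairpins, and no design of pairs is stated.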

Additional observations from a re-analysis of the deposited data

Results flagged for a closer look

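In 9 cases a member's response differed between groups by a test of the difference itself, edgeR's quasi-likelihood test with adjustment over all genes. The IL-4 effect was higher in Etv1 shRNA than in control shRNA cells for Hmox1 (difference of log2 fold changes 1.10, adjusted p = 0.00468), Srxn1 (0.88, adjusted p = 0.0189) and Nfe2l2 (0.47, adjusted p = 0.00834). Of all genes 4.51% were called there, and the Srxn1 call was lost in 3 of 19 alternatives. The IL-4 effect on Srxn1 was lower in control shRNA than in wild type cells (-0.57, adjusted p = 0.0237), a call lost in 8 of 17 alternatives. Of all genes 9.18% were called there. The PGE2 effect was higher in control shRNA than in wild type cells for Nqo1 (2.28, adjusted p = 0.0334), Gclc (0.84, adjusted p = 1.12e-06), Txnrd1 (0.84, adjusted p = 0.000106), Srxn1 (0.67, adjusted p = 0.0044) and Nfe2l2 (0.51, adjusted p = 0.00011). Of all genes 19.1% were called there, and the calls of Nqo1 and Srxn1 were lost in 8 and 1 of 17 alternatives. The PGE2 effect differed between hairpins in 0 of 10 members in the fit without a block, beside 11.6% of all genes. Each group held 3 libraries, too few for a test of single outlying libraries.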

How the results depend on the processing

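Of 2040 values of single members under an alternative, 1884 kept their direction and side of the threshold, 87 gained a call, 69 lost one and 0 called values reversed; 88 uncalled values changed sign. Of 408 counts, 365 stayed within 1.5 times. In wild type all counts did, and the replicate block changed no member's call there. With the replicate block, members called went from 1 to 6 for Etv1 against control shRNA with IL-4 and PGE2, from 3 to 8 for the difference of IL-4 effects between hairpins (984 against 559 of all genes) and from 1 to 2 for the IL-4 effect in control shRNA minus wild type. With a block within each hairpin, added after seeing the data, members called were 5 against 3 for IL-4 and 5 against 3 for PGE2 in Etv1 shRNA cells, and 8 and 3 for the differences of the IL-4 and PGE2 effects (1413 and 2563 of all genes, against 559 and 1438). Without replicate 2 in any group, also added, members called were 5 for IL-4 in Etv1 shRNA cells, 5 for Etv1 against control shRNA with IL-4 and PGE2, and 8 and 1 for the 2 differences (1154 of all genes for IL-4). Without the filter, 2 were called for Etv1 against control shRNA with IL-4, for the same with IL-4 and PGE2, and for the IL-4 effect in control shRNA minus wild type. With only the compared groups fitted, 2, 2 and 0 were called in these 3 comparisons and 3 for the PGE2 effect in control shRNA minus wild type. Leaving out 1 library gave 5 to 7 members for Etv1 against control shRNA without stimulus, 1 to 4 with IL-4 and 1 to 4 with IL-4 and PGE2, 2 to 7 and 0 to 1 for the differences of IL-4 and PGE2 effects between hairpins (360 to 762 of all genes for IL-4), and 0 to 2 and 4 to 8 for those of control shRNA minus wild type. For all genes the lowest values, 361 and 360, came without control shRNA IL-4 replicate 1 or 3. With 3 libraries a group, and few counts for Nqo1 in wild type, small differences could not be resolved.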
